A study of Mus musculus with 8 samples.

Results

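The genes described here are 8 genes of the histone H3 lysine 9 (H3K9) methylation machinery of mouse: Ehmt1, Ehmt2, Wiz, Suv39h1, Suv39h2, Cbx1, Cbx3 and Cbx5. They were taken by symbol from the 36920 genes of the count table, with Ensembl identifiers matched to symbols in the GENCODE M21 annotation, and all 8 were found and passed the filter on low counts. RNA sequencing had been done on R1 mouse embryonic stem (ES) cells, an established line kept in serum and LIF, in 4 groups of 2 libraries. The groups labelled ML-792 were D3 and D10, each sampled at the end of a 48 h exposure to ML-792, which blocks the E1 enzyme that activates SUMO, at a dose labelled 2.5 mM, a unit that could not be checked here. The groups labelled control were D1, before the first exposure, and D8, taken 5 days after D3 and before the second exposure. D8 cells had therefore already been exposed once, and no library without the inhibitor is labelled D3 or D10, so the inhibitor and the time in culture cannot be told apart within an exposure. The time tag of D1 replicate 2 reads day 0 while its title reads D1, and the title was followed.

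Methylation of H3K9 marks silent chromatin. Ehmt2 encodes the methyltransferase G9a and Ehmt1 its close relative GLP. Both proteins work as a heteromeric complex that places the mono- and dimethyl mark in euchromatin, and Wiz encodes a zinc finger protein of that complex. Suv39h1 and Suv39h2 encode the enzymes that trimethylate H3K9 at pericentric repeats. HP1 proteins bind methylated H3K9 through a chromodomain; Cbx5 encodes HP1 alpha, Cbx1 HP1 beta and Cbx3 HP1 gamma. In mouse embryonic stem cells G9a and GLP help to keep endogenous retroviruses and germline genes silent, and SUMO modification of HP1 alpha has been linked to its targeting to pericentric heterochromatin.

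The libraries held 21040992 to 40835518 reads in genes. D8 replicate 2 stood apart: its coding genes rich in GC tended to lie above their average over the libraries (Spearman rho with GC content 0.548), while rho was -0.341 to -0.297 in both D3 libraries and D10 replicate 1, and -0.076 to 0.115 in D10 replicate 2, both D1 libraries and D8 replicate 1. The part of these trends in the differences between ML-792 and control libraries was not tested apart from the fit with offsets given further on. The 8 markers of pluripotent cells (Pou5f1, Sox2, Nanog, Zfp42, Utf1, Esrrb, Sall4 and Dppa5a) summed to 2800 to 3770 CPM (read counts scaled to library size) in the ML-792 libraries and 5110 to 5820 CPM in the control libraries. Of these 8, edgeR called 5 lower and 0 higher between the groups, where 13.4% of all genes tested were called lower. The groups overlapped for Sox2 (298 to 400 CPM with ML-792, 300 to 381 CPM in controls), Sall4 (253 to 324 and 257 to 293 CPM) and Zfp42 (466 to 786 and 598 to 971 CPM). The 8 markers of the 2-cell-like state, a minor state of such cultures that resembles the 2-cell embryo, summed to 506 to 2310 CPM with ML-792 and 5.92 to 78.9 CPM in controls. The 8 endoderm markers summed to 489 to 1100 CPM at D8 and D10 and 130 to 215 CPM at D1 and D3. Most of that sum was Col4a1, at 386 to 933 CPM at D8 and D10 and 112 to 171 CPM at D1 and D3. At D8 versus D1, edgeR called 5 of these 8 higher and 0 lower, where 0.141% of all genes tested were called higher. Markers of this list also changed within an exposure. At D3 versus D1, where 7.92% of all genes tested were called higher, Gata6 (log2 1.355, edgeR adjusted p = 0.0115) and Pdgfra (1.558, 0.00708) were called higher and 0 lower. At D10 versus D8, where 7.65% of all genes tested were called lower, Dab2 (-1.178, edgeR adjusted p = 0.0389) was called lower and 0 higher. The 9 fibroblast markers summed to 6.16 to 19.7 CPM and the 6 blood and endothelial markers in the table to 11.6 to 28.1 CPM over the 8 libraries. The part of this shift in cell states in the results below was not tested, and in bulk RNA a change in the share of cells and a change in RNA per cell cannot be told apart.

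On mm10, Ehmt1 (ENSMUSG00000036893) lies on chromosome 2 from 24789928 to 24919614, minus strand, and Ehmt2 (ENSMUSG00000013787) on chromosome 17 from 34898469 to 34914052, plus strand. Wiz (ENSMUSG00000024050) lies on chromosome 17 from 32354055 to 32389439, Suv39h1 (ENSMUSG00000039231) on chromosome X from 8061171 to 8074760 and Suv39h2 (ENSMUSG00000026646) on chromosome 2 from 3455815 to 3475031, each on the minus strand. Cbx1 (ENSMUSG00000018666) lies on chromosome 11 from 96789127 to 96808640 and Cbx3 (ENSMUSG00000029836) on chromosome 6 from 51470360 to 51483704, both on the plus strand, and Cbx5 (ENSMUSG00000009575) on chromosome 15 from 103191544 to 103239816, minus strand. The strand setting of the read counting is not given in the sources used here, which matters where genes overlap. The exons of Suv39h1 share 767 bases with Gm14820, an antisense gene, and those of Suv39h2 share 357 bases with Dclre1c, a DNA repair nuclease gene on the other strand. Wiz shares 2040 exon bases with Gm26858, a lincRNA gene on the other strand that had 0 or 1 read in each library. Stretches of its transcripts also matched genes elsewhere, at 93.0% identity or more over 201 to 342 bases. These included Efr3a (98.5% over 206 bases) and Gm46332 (96.0% over 201 bases), which had 515 to 2276 reads a library. Reads from such stretches could have been split or lost for Wiz as well, which was not tested. Cbx3 has 18 processed pseudogenes in the annotation that match its transcripts over at least 200 bases at 90% identity or more. The 14 of them in the count table together held 27 to 68 reads a library, 0.817% to 2.34% of the reads counted on Cbx3, so reads could have been split between Cbx3 and its copies.

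The promoters of the 3 genes that passed the test between ML-792 and control libraries, Ehmt1, Ehmt2 and Suv39h1, are printed because these genes moved in opposite directions. Each is the 250 bases upstream of the RefSeq start nearest the GENCODE start of the gene, from RefSeq sequence on GRCm38.p6, written 5′ to 3′ on the gene's strand. Capitals mark matches on either strand to the GC box GGGCGG, the CCAAT box CCAAT, the E-box CACGTG or the NRF1 motif, which is GCGC, any 2 bases and GCGC.
Ehmt1 (chr2:24919610-24919859, minus strand): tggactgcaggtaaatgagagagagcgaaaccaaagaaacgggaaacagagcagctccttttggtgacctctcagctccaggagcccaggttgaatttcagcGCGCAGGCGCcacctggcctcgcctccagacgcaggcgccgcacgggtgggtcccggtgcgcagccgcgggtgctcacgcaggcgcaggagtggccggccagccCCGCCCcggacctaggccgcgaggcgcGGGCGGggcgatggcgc
Ehmt2 (chr17:34898224-34898473, plus strand): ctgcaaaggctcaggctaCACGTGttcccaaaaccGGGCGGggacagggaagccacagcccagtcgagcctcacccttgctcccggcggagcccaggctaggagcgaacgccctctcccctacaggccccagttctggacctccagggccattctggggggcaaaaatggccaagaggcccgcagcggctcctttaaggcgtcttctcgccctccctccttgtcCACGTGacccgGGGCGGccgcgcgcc
Suv39h1 (chrX:8074761-8075010, minus strand): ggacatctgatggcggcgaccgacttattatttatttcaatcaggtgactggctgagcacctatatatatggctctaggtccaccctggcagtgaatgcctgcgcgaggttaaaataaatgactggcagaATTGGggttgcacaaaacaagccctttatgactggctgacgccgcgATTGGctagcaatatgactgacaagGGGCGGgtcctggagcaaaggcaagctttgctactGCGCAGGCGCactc

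The Ehmt1 window held 26 CpG sites, 2 GC boxes and 1 NRF1 motif. The Ehmt2 window held 18 CpG sites, 2 GC boxes and 2 E-boxes, and that of Suv39h1 11 CpG sites, 1 GC box, 2 CCAAT boxes and 1 NRF1 motif. The median over all windows was 6 CpG sites, and 37.8% of them had 10 or more, while the windows of the 8 members held 11 to 29. The GC box itself holds a CpG. All 8 members had at least 1 GC box in their window, where 32.7% of 32851 RefSeq windows of the same length, whatever their CpG content, had one. An E-box was present in 6.02% of those windows and, among the members, in those of Ehmt2 and Cbx5. The NRF1 motif was present in 4.98% of windows and, among the members, in those of Ehmt1, Suv39h1, Suv39h2 and Cbx5. The CCAAT box was present in 33.8% of windows and, among the members, in those of Wiz, Suv39h1 and Cbx5. The core ETS motif CCGGAAG and the CRE motif TGACGTCA were also searched, and the first was found in 6.91% of all windows and in no member's window, and the second in 1.55% and in that of Suv39h2 alone. The window of Cbx5 rests on a RefSeq start whose downstream bases were not found in a GENCODE transcript of the gene, unlike the starts of the other members. A match is a description of the letters in the window.

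Levels were compared between genes as RPKM, which is CPM divided by exon length in kilobases. Over the 8 libraries, Cbx5 averaged 72.5 ± 9.46 RPKM and Cbx1 67.4 ± 8.86 RPKM (SD, n = 8), at percentiles 95.9 and 95.5 of the 14693 coding genes tested. Ehmt2 followed at 24.2 ± 6.25 RPKM and Cbx3 at 18.0 ± 3.74 RPKM. Suv39h2 averaged 12.4 ± 1.5 RPKM, Suv39h1 10.3 ± 1.42 RPKM and Ehmt1 9.49 ± 1.26 RPKM. The lowest was Wiz at 1.31 ± 0.203 RPKM, at percentile 30.2, with 186 to 488 reads a library. The library ranges of Cbx5 and Cbx1 overlapped, as did those of Ehmt2 and Cbx3 and those of Suv39h2, Suv39h1 and Ehmt1, so ranges pooled over the libraries do not separate the order within these sets. The ranges of Cbx3 (12.8 to 23.4 RPKM) and Suv39h2 (9.54 to 13.9 RPKM) overlapped as well. Read library by library, however, Suv39h2 lay above Ehmt1 and Cbx3 above Suv39h2 in each library. The order of Cbx5 and Cbx1, of Ehmt2 and Cbx3, and of Suv39h2 and Suv39h1 changed between libraries. Cbx3 made up 8.18% to 12.3% of the summed HP1 RPKM in the ML-792 libraries and 10.8% to 13.5% in the control libraries.

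The first comparison asked how the 4 ML-792 libraries, D3 and D10 together, differed from the 4 control libraries, D1 and D8 together. Ehmt1 and Suv39h1 were higher with ML-792 and Ehmt2 was lower. These 3 of 8 members passed at an adjusted p under 0.05, in a comparison that called 28.7% of the 19173 genes tested (15.3% higher and 13.4% lower), so the share among the members does not stand out from that background. The median log2 fold change of the 8 members was 0.10, beside 0.00 over all genes tested.

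Ehmt1, which encodes GLP, had 84.4 and 87.0 CPM at D3 and 88.1 and 85.3 CPM at D10, against 62.0 and 68.0 CPM at D1 and 69.7 and 71.5 CPM at D8. All 4 ML-792 libraries lay above all 4 control libraries, and the replicates of a day lay close together. The mean was 86.2 ± 1.67 CPM with ML-792 and 67.8 ± 4.11 CPM in controls (SD, n = 4 each), a log2 fold change of 0.35 ± 0.081 (SE, edgeR adjusted p = 0.00988), or 1.27-fold. The call was kept in each of the 16 alternatives (adjusted p of 4.86e-05 to 0.0434), which included leaving out each library.

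Ehmt2, which encodes G9a, moved the other way. It had 96.7 and 100 CPM at D3 and 116 and 122 CPM at D10, against 135 and 144 CPM at D1 and 146 and 205 CPM at D8. The groups again did not overlap, and the highest value was that of D8 replicate 2. The mean was 109 ± 12.1 CPM with ML-792 and 157 ± 32 CPM in controls (SD, n = 4 each), a log2 fold change of -0.53 ± 0.14 (SE, edgeR adjusted p = 0.0185). Ehmt1 and Ehmt2 were the 2 of 8 members without overlap between these groups, where 30.9% of all genes tested had none. Without D8 replicate 2 the change of Ehmt2 was -0.41 (adjusted p = 0.0105). Without D3 replicate 1 (-0.49, adjusted p = 0.0531) or D3 replicate 2 (-0.51, adjusted p = 0.0514) it just missed the threshold.

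The balance of both partners therefore differed between the groups. Per kilobase, Ehmt2 was 1.69 and 1.70 times Ehmt1 at D3 and 1.95 and 2.11 times at D10, against 3.21 and 3.13 times at D1 and 3.09 and 4.24 times at D8. Ehmt2 had the higher level in every library, both in CPM and per kilobase of all annotated exons. The ratio rests on the same counts as the tests above and was given no test of its own. It was not adjusted for GC content, which is 60.8% for Ehmt2 and 51.2% for Ehmt1. With GC and length offsets the log2 fold changes were -0.32 for Ehmt2 and 0.28 for Ehmt1, against -0.53 and 0.35 without. The part of the GC trends in the ratio was not tested.

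**Figure D1:**
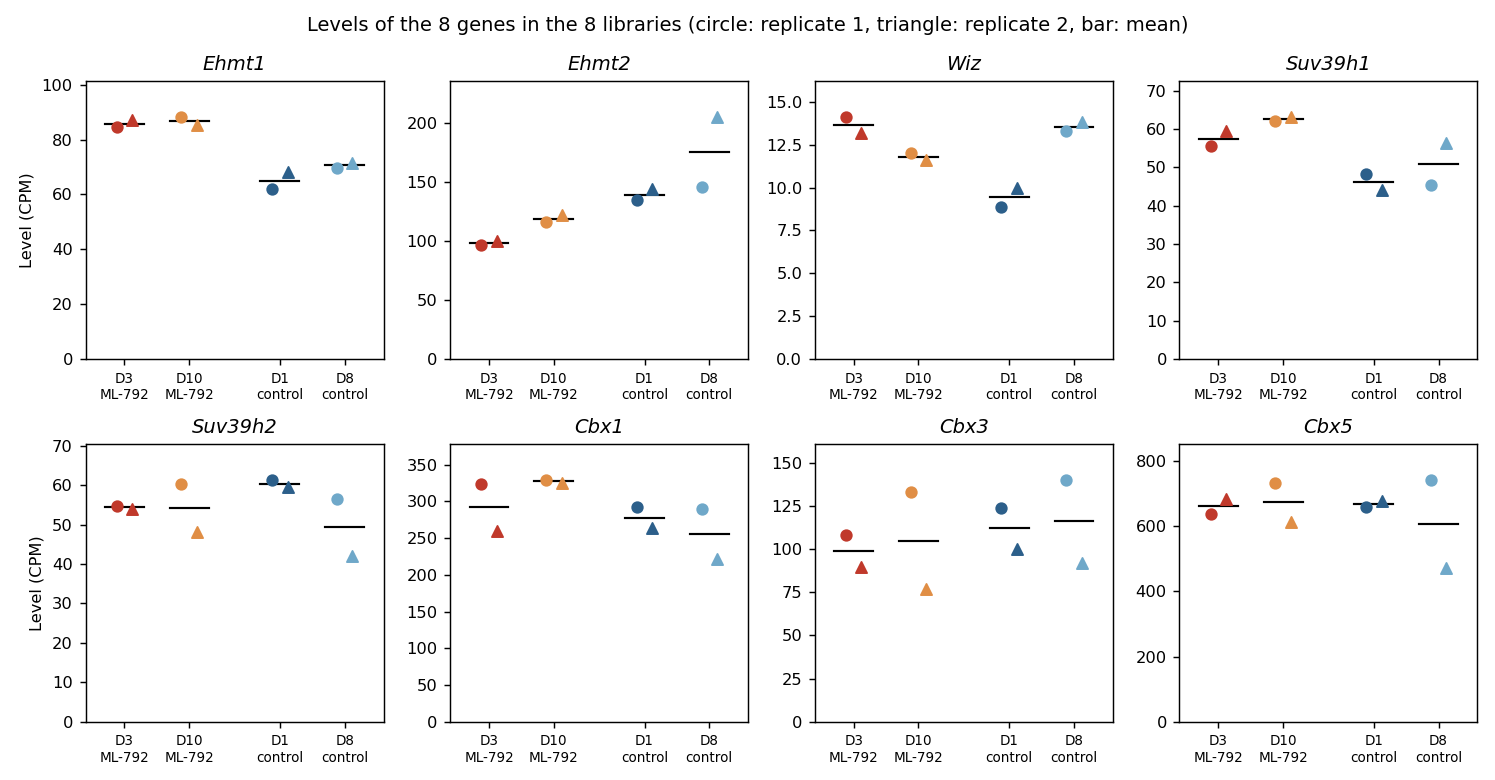
Level of each of the 8 genes (CPM, linear axes from 0) in the ML-792 groups D3 and D10 and the control groups D1 and D8; circles are replicate 1, triangles replicate 2 and bars the mean of 2 libraries. The ML-792 libraries lie between 84.4 and 88.1 CPM for Ehmt1, above all controls, and between 96.7 and 122 CPM for Ehmt2, below all controls, while replicates differ widely for Cbx3 and Cbx5.

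Suv39h1 had 55.7 and 59.4 CPM at D3 and 62.2 and 63.1 CPM at D10, against 48.2 and 44.1 CPM at D1 and 45.4 and 56.4 CPM at D8. Its lowest ML-792 library lay under its highest control, D8 replicate 2. The mean was 60.1 ± 3.29 CPM with ML-792 and 48.5 ± 5.50 CPM in controls (SD, n = 4 each), a log2 fold change of 0.31 ± 0.10 (SE, edgeR adjusted p = 0.0435). This call was the weakest of the 3: it was lost without 7 of the 8 libraries in turn (adjusted p of 0.0728 to 0.132), the exception being D8 replicate 2 (0.36, adjusted p = 0.00995), and without the low-count filter (0.109). Its antisense neighbour Gm14820 had 7.37 and 9.02 CPM at D3 and 3.81 and 3.59 CPM at D10, against 9.66 and 12.4 CPM at D1 and 8.70 and 6.50 CPM at D8, with a log2 fold change of -0.65 ± 0.32 (edgeR adjusted p = 0.157).

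Suv39h2, its paralogue, had 54.8 and 54.0 CPM at D3 and 60.4 and 48.1 CPM at D10, against 61.3 and 59.5 CPM at D1 and 56.6 and 42.1 CPM at D8. The ML-792 and control libraries overlapped, although both D3 libraries lay below both D1 libraries. The log2 fold change was -0.02 ± 0.13 with a 95% interval of -0.30 to 0.27 (edgeR adjusted p = 0.943). Dclre1c, which overlaps it on the other strand, fell by 0.83 ± 0.17 on the log2 scale (adjusted p = 0.00599), at 5.43 to 7.70 CPM with ML-792 and 10.7 to 14.8 CPM in controls. The ratio of Suv39h2 to Suv39h1 per kilobase was 1.17 and 1.09 at D3 and 1.16 and 0.911 at D10, against 1.52 and 1.61 at D1 and 1.49 and 0.891 at D8. The lowest of these 8 ratios was that of D8 replicate 2.

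Wiz had 14.1 and 13.2 CPM at D3 and 12.0 and 11.6 CPM at D10, against 8.89 and 9.97 CPM at D1 and 13.3 and 13.8 CPM at D8. D1 was the low group, and the libraries of the other 3 groups lay between 11.6 and 14.1 CPM. Between ML-792 and control libraries the log2 fold change was 0.14 ± 0.17 with an interval of -0.23 to 0.52 (edgeR adjusted p = 0.566).

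None of the HP1 genes passed in the fit without GC offsets. Cbx1 had 324 and 260 CPM at D3 and 329 and 325 CPM at D10, against 292 and 263 CPM at D1 and 289 and 222 CPM at D8, a log2 fold change of 0.21 ± 0.12 with an interval of -0.04 to 0.47 (edgeR adjusted p = 0.197). Cbx5 had 639 and 685 CPM at D3 and 733 and 613 CPM at D10, against 658 and 679 CPM at D1 and 742 and 472 CPM at D8, a change of 0.07 ± 0.14 (-0.23 to 0.37, edgeR adjusted p = 0.758). The groups overlapped for both genes, and D8 replicate 2 was the lowest library of each. Cbx3 had 108 and 89.5 CPM at D3 and 133 and 76.9 CPM at D10, against 124 and 100 CPM at D1 and 140 and 92.2 CPM at D8, a change of -0.17 ± 0.18 (-0.57 to 0.24, edgeR adjusted p = 0.537). Replicate 2 of Cbx3 was below replicate 1 in every group. With GC and length offsets, Cbx3 stood at -0.63 (edgeR adjusted p = 0.00293) and Cbx5 at -0.27 (adjusted p = 0.0248), and both were called lower. Over all genes, the fit with offsets called 2749 higher and 4763 lower. These data do not show that HP1 transcripts were constant.

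**Figure D2:**
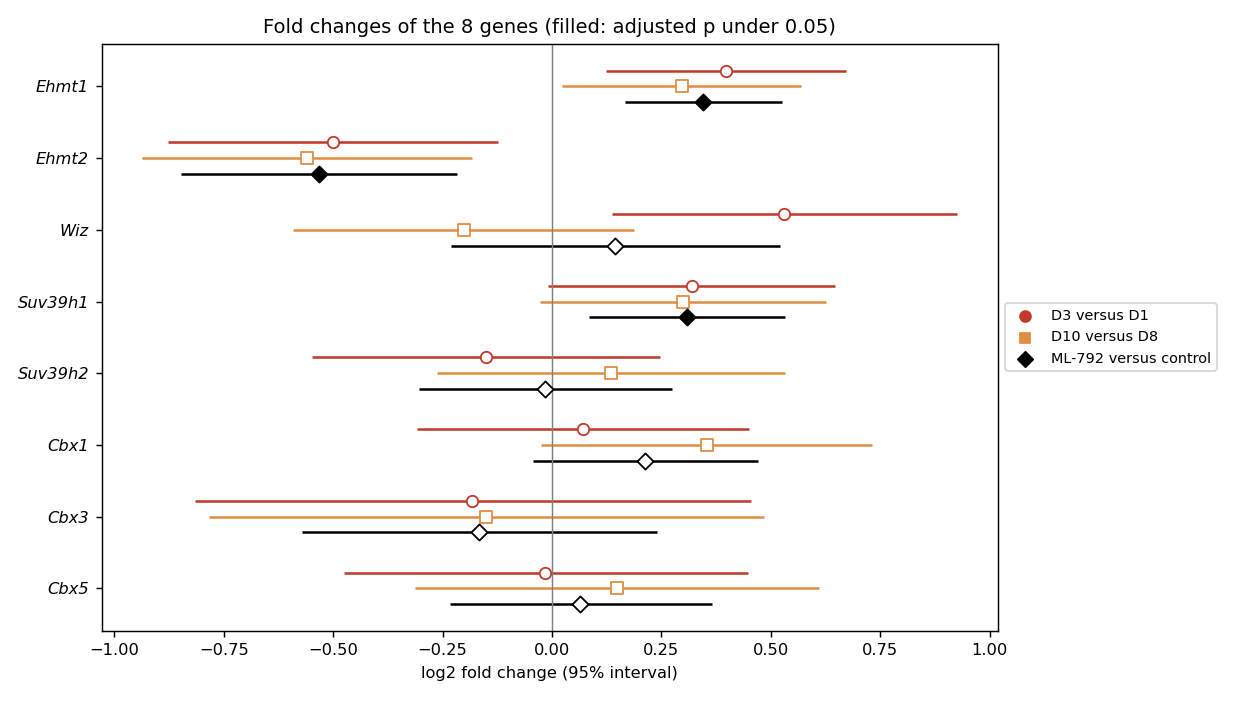
Log2 fold changes of the 8 genes (x axis; first-named group over the second) with 95% intervals for D3 versus D1, D10 versus D8 and all ML-792 versus all control libraries; filled symbols passed at an adjusted p under 0.05. Ehmt1, Ehmt2 and Suv39h1 are filled in the pooled comparison only, at 0.35, -0.53 and 0.31.

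One exposure at a time, with 2 libraries a group, none of the members passed in the fit without offsets. At the first exposure, D3 versus D1, edgeR called 13% of all genes tested (7.92% higher and 5.1% lower) and 0 of the 8 members, DESeq2 also called 0 members, and 2 members were higher and 1 lower at an unadjusted p under 0.05, as were 2966 and 2414 of the 19173 genes. The libraries did not overlap for 5 of the 8 members, where 64.8% of all genes tested had no overlap. The log2 fold change was 0.40 ± 0.12 for Ehmt1 (edgeR adjusted p = 0.0632), -0.50 ± 0.17 for Ehmt2 (0.0834), 0.53 ± 0.17 for Wiz (0.0805) and 0.32 ± 0.14 for Suv39h1 (0.191). For Suv39h2, Cbx1, Cbx3 and Cbx5 it lay between -0.18 and 0.07. With GC and length offsets, which shifted the median of all genes to -0.13, 4 members were called: Ehmt2 (-0.39, edgeR adjusted p = 0.0368), Wiz (0.54, adjusted p = 0.0465), Suv39h2 (-0.40, adjusted p = 0.0393) and Cbx3 (-0.53, adjusted p = 0.0297). The fit with offsets called 1774 of the 19173 genes higher and 2673 lower.

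At the second exposure, D10 versus D8, edgeR called 16.9% of all genes tested (9.27% higher and 7.65% lower) and 0 of the 8 members, with 1 member higher and 1 lower at an unadjusted p under 0.05, as were 3138 and 2946 of the 19173 genes. Ehmt2 changed by -0.56 ± 0.17 and missed the threshold narrowly (edgeR adjusted p = 0.0501). DESeq2 called it as the only member (adjusted p = 0.0388), but without D8 replicate 2 it stood at -0.33 (edgeR adjusted p = 0.143). With GC and length offsets it stood at -0.26 (edgeR adjusted p = 0.127), where the median of all genes was -0.12, and Cbx3 was the 1 member called (-0.72, adjusted p = 0.00829). The fit with offsets called 1874 of the 19173 genes higher and 2984 lower. Without offsets, Ehmt1 changed by 0.30 ± 0.12 (edgeR adjusted p = 0.129), Suv39h1 by 0.30 ± 0.14 (0.193), Cbx1 by 0.35 ± 0.17 (0.186) and Wiz by -0.20 ± 0.17 (0.463). The libraries did not overlap for these 5 genes, where 54.9% of all genes tested had no overlap. For Suv39h2, Cbx3 and Cbx5 the change lay between -0.15 and 0.15.

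The responses to both exposures were set against each other in 1 contrast. EdgeR called 0 of the 8 members and 0% of the 19173 genes, with 296 genes higher and 279 lower at an unadjusted p under 0.05, and DESeq2 called 3 genes, none of them a member. For Ehmt1 the second response less the first was -0.10 ± 0.17 (-0.49 to 0.28), for Ehmt2 -0.06 ± 0.23 (-0.59 to 0.47) and for Suv39h1 -0.02 ± 0.20 (-0.48 to 0.44) on the log2 scale. For Wiz it was -0.73 ± 0.24 (-1.29 to -0.18, edgeR adjusted p = 1), since Wiz was higher at D3 than at D1 and lower at D10 than at D8.

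Whether levels stayed shifted after withdrawal was asked by comparing D8 with D1. EdgeR called 0.177% of all genes tested (0.141% higher and 0.0365% lower) and 0 of the 8 members, DESeq2 also called 0 members, and 1 member, Wiz, was higher at an unadjusted p under 0.05, as were 1410 of the 19173 genes. Wiz averaged 13.5 ± 0.369 CPM at D8 and 9.43 ± 0.761 CPM at D1 (SD, n = 2 each), a log2 fold change of 0.52 ± 0.17 (edgeR adjusted p = 0.308). Ehmt1 differed by 0.12 ± 0.12 and Ehmt2 by 0.33 ± 0.16, with intervals of -0.15 to 0.39 and -0.04 to 0.71. Libraries did not overlap for 4 of the 8 members, where 41.9% of all genes tested had no overlap.

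D8 was also compared with D3, the end of the exposure that came before it, where edgeR called 22.5% of all genes tested (11.3% higher and 11.2% lower). Ehmt2 was the 1 member called: it averaged 175 ± 41.7 CPM at D8 and 98.4 ± 2.52 CPM at D3 (SD, n = 2 each), 1.78-fold higher (log2 0.83 ± 0.17, edgeR adjusted p = 0.00913). The call was lost without D3 replicate 1 (0.82, adjusted p = 0.0769) or D3 replicate 2 (0.88, adjusted p = 0.0539). It was 0.59 without D8 replicate 2 (adjusted p = 0.0195) and 0.40 with GC and length offsets (adjusted p = 0.0255), where the median of all genes was 0.13. Ehmt1 differed by -0.28 ± 0.12 (edgeR adjusted p = 0.131). This comparison shares the D3 libraries with D3 versus D1 and is not separate support for the change there.

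**Figure D3:**
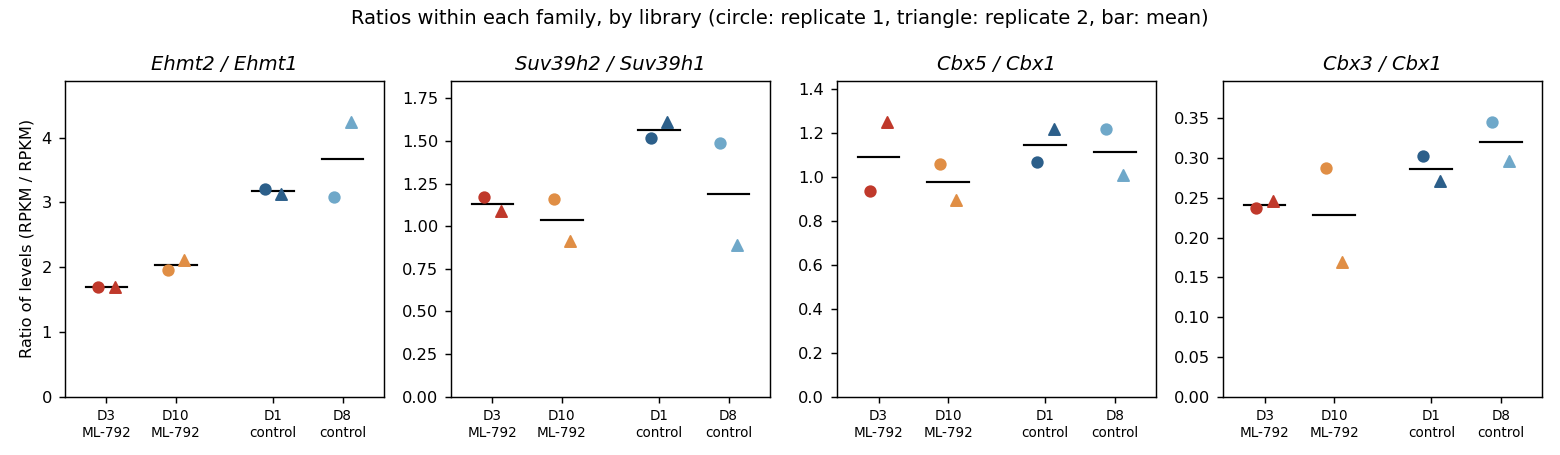
Ratios of RPKM between members of a family in each library, not adjusted for GC content (linear axes from 0; groups, symbols and bars as in the plot of levels). Ehmt2 over Ehmt1 lies between 1.69 and 2.11 in the ML-792 libraries and between 3.09 and 4.24 in the controls, whereas the groups overlap for the other 3 ratios.

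The spread between the D8 replicates differed with the GC content of the members. In D8 the level in replicate 2 was 0.636 to 0.768 times that in replicate 1 for the 4 members with the lowest GC content, Cbx3, Cbx5, Suv39h2 and Cbx1 (38.7% to 44.8%), and 1.03 to 1.4 times for the 4 with the highest, Suv39h1, Ehmt1, Wiz and Ehmt2 (50.0% to 60.8%). When the trend of each library with GC content and exon length was removed by offsets, the median log2 fold change of all genes between ML-792 and control libraries shifted to -0.13. In that fit Ehmt1 (0.28, edgeR adjusted p = 0.01), Ehmt2 (-0.32, 0.00985) and Suv39h1 (0.25, 0.0419) kept their direction and call. That fit called 2749 genes higher and 4763 lower, where the fit without offsets called 2927 higher and 2578 lower. Relative to the median of all genes they stood at 0.41, -0.19 and 0.38. Cbx3 (-0.63, edgeR adjusted p = 0.00293), Suv39h2 (-0.31, 0.0142) and Cbx5 (-0.27, 0.0248) were called lower in that fit alone or with the replicate block added, and relative to the median stood at -0.50, -0.18 and -0.14. The direction of Cbx5 was thus not settled: it also stood at -0.08 without D8 replicate 2 (edgeR adjusted p = 0.513), and Cbx1 stood at -0.02 with the offsets (adjusted p = 0.884). The GC trends followed the groups in part: D10 replicate 2, at a rho of 0.013, lay among the controls other than D8 replicate 2, and the other 3 ML-792 libraries lay below them. A technical GC trend and a response of genes poor in GC cannot be told apart by this fit.

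**Figure D4:**
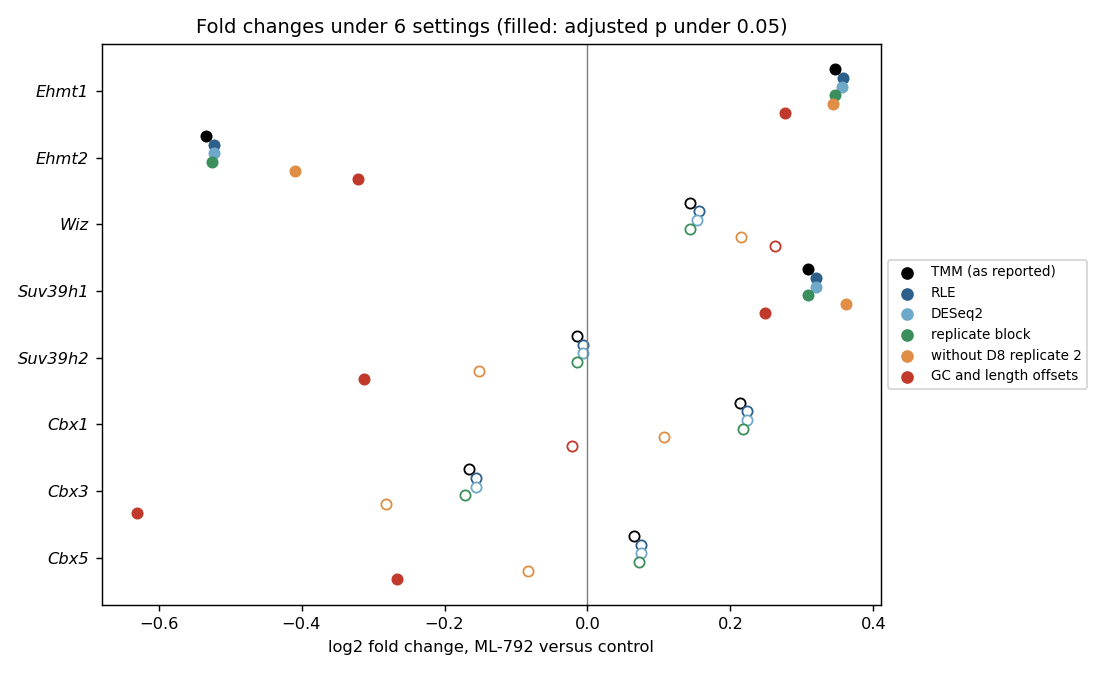
Log2 fold change of each of the 8 genes between ML-792 and control libraries (x axis) under 6 settings; filled points passed at an adjusted p under 0.05. The points of Ehmt1 and Suv39h1 stay right of 0 and those of Ehmt2 left of it under the 6 settings, while Cbx3, Suv39h2 and Cbx5 are filled at -0.63, -0.31 and -0.27 with GC and length offsets only.

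The other genes of the pathway were read from lists chosen with earlier results of these data known. Single genes of these lists were not read under the alternative settings used for the members. Among 5 other genes for H3K9 methyltransferases or proteins described as such, 1 rose between ML-792 and control libraries and 0 fell. It was Mecom, a PR-domain zinc finger gene, which had 14.4 and 6.76 CPM at D3 and 5.35 and 6.04 CPM at D10, against 1.63 and 1.65 CPM at D1 and 0.523 and 0.515 CPM at D8 (log2 2.93 ± 0.48, edgeR adjusted p = 0.00171). Of 20 partners and recruiters of H3K9 methylation and HP1, 7 rose and 1 fell, with a median of 0.20 beside 0.00 over all genes, of which 15.3% were called higher and 13.4% lower. Atf7ip, a cofactor of the methyltransferase Setdb1, had 216 to 280 CPM with ML-792 and 50.8 to 68.8 CPM in controls (1.94 ± 0.12, edgeR adjusted p = 2.7e-05), with no overlap. Senp7, a SUMO protease gene whose product binds HP1 alpha, had 5.99 to 13.8 CPM with ML-792 and 2.96 to 4.04 CPM in controls (1.38 ± 0.26, edgeR adjusted p = 0.00377). Zfp462, which encodes a zinc finger protein that recruits G9a and GLP in mouse stem cells, had 93.3 to 125 CPM with ML-792 and 63.4 to 82.9 CPM in controls (0.53 ± 0.12, edgeR adjusted p = 0.00806). Atf7ip2 rose too (1.04 ± 0.24, edgeR adjusted p = 0.0097).

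Of the 11 H3K9 demethylase genes, 2 rose and 1 fell between ML-792 and control libraries, a share close to the 28.7% of all genes called. Kdm3b, a demethylase of the mono- and dimethyl mark, had 101 to 114 CPM with ML-792 and 132 to 170 CPM in controls (log2 -0.55 ± 0.10, edgeR adjusted p = 0.00262), with no overlap. Phf8 rose by 0.38 ± 0.10 (edgeR adjusted p = 0.0185), and so did Kdm4d, at under 1 CPM in every library (1.32 ± 0.30, edgeR adjusted p = 0.00894). Among the 5 Polycomb chromobox genes, whose products read H3K27 methylation through the same kind of domain as HP1, 3 fell and 0 rose. Over all genes tested, 13.4% were called lower in that comparison. Cbx7, the main one of stem cells, had 104 to 138 CPM with ML-792 and 179 to 194 CPM in controls (-0.62 ± 0.10, edgeR adjusted p = 0.00145). Cbx6 fell by 0.75 ± 0.11 (edgeR adjusted p = 0.000921) and Cbx2 by 0.61 ± 0.17 (edgeR adjusted p = 0.0253) on the log2 scale. Of 7 methyltransferase genes for H3K36 and H4K20, 0 were called by edgeR, with 1 higher and 1 lower at an unadjusted p under 0.05.

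The lists were also read within single exposures. At D3 versus D1, where 7.92% of all genes were called higher, 2 of the 20 partners rose, Atf7ip (log2 1.90 ± 0.17, edgeR adjusted p = 0.00144) and Pogz (0.53 ± 0.15, adjusted p = 0.046), whose product binds HP1 proteins. At D10 versus D8, where 9.27% of all genes were called higher, 4 of the 20 rose: Atf7ip (1.98 ± 0.17, edgeR adjusted p = 0.000816), Senp7 (1.72 ± 0.27, adjusted p = 0.00515), Atf7ip2 (1.23 ± 0.31, adjusted p = 0.0301) and Morc2a (0.59 ± 0.12, adjusted p = 0.0132). Of the 11 demethylase genes 0 were called at D3 versus D1 by edgeR, with 2 higher and 1 lower at an unadjusted p under 0.05. In D10 versus D8, where 9.27% of all genes were called higher and 7.65% lower, 1 of the 11 rose and 2 fell. Kdm4b, a demethylase of the trimethyl mark, had 19.0 and 19.5 CPM at D10, against 27.4 and 40.6 CPM at D8 (log2 -0.82 ± 0.22, edgeR adjusted p = 0.0329). Its highest value was that of D8 replicate 2, and D1 had 20.5 and 26.9 CPM. Kmt5c, which encodes an H4K20 methyltransferase that acts at pericentric chromatin, had 37.7 and 46.7 CPM at D10, against 64.4 and 73.0 CPM at D8 (-0.70 ± 0.19, edgeR adjusted p = 0.0338). Of the 7 methyltransferase genes for H3K36 and H4K20 it was the 1 called lower there, and 0 were called higher. Kmt5c was also highest in D8 replicate 2, and D1 had 42.5 and 56.5 CPM. At D3 versus D1 it changed by -0.05 ± 0.19 (edgeR adjusted p = 0.886). Mecom rose at both exposures (log2 2.69 ± 0.37 and 3.45 ± 0.41, edgeR adjusted p = 0.00421 and 0.00195). Of the Polycomb chromobox genes, 3 fell at D3 versus D1, where 5.1% of all genes were called lower, and 2 at D10 versus D8, where 7.65% were.

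Mage-a genes and Wfdc15a are known to be silenced by G9a and GLP in mouse stem cells. Of 9 such genes, 8 were in the table and 2, Magea4 and Wfdc15a, passed the filter on low counts. The 8 summed to 0.405 to 3.06 CPM with ML-792 and 0.327 to 1.83 CPM in controls, and the groups overlapped. Neither gene tested passed between ML-792 and control libraries, with Magea4 at -1.27 ± 0.65 (edgeR adjusted p = 0.17) and Wfdc15a at 0.60 ± 0.53 (edgeR adjusted p = 0.426), 0 genes at an unadjusted p under 0.05.

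For each member, the coding genes most like it over the 8 libraries were sought by Pearson correlation of log2 CPM among 9116 genes with a mean of at least 10 CPM. These correlations are descriptions over 8 libraries that share depth and GC trends. Ehmt1 was closest to Jag1 (r = 0.9952), a Notch ligand gene, and Enpp3 (r = 0.9926). Jag1 had 42.9 to 51.5 CPM with ML-792 and 14.0 to 25.8 CPM in controls. Ehmt2 was closest to Ntmt1 (r = 0.9939), an N-terminal methyltransferase gene, which had 28.4 to 35.2 CPM with ML-792 and 38.8 to 61.0 CPM in controls, and to Unc45a (r = 0.9886). Suv39h1 was closest to Zfat (r = 0.9687) and Slc25a4 (r = 0.9668). Cbx3 was closest to Cenpf (r = 0.9684) and Casp2 (r = 0.968), and Cenpf, a kinetochore gene, was likewise lower in replicate 2 than in replicate 1 of every group. Suv39h2 was closest to Xpo4 (r = 0.9814) and Btf3l4 (r = 0.979), Cbx5 to Nr1d2 (r = 0.9775) and Ubxn7 (r = 0.9773), Cbx1 to Tprkb (r = 0.9547) and Hmmr (r = 0.9544), and Wiz to Taok2 (r = 0.9523) and Smim11 (r = 0.9352). Among the members themselves, Suv39h2 and Cbx5 were the most alike (r = 0.871), followed by Ehmt1 and Suv39h1 (r = 0.841), and the lowest values were those of Ehmt2 with Cbx1 (r = -0.68) and with Ehmt1 (r = -0.643).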

How the data were processed

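RNA was sequenced from 8 libraries of R1 cells. The authors deposited unnormalized counts, whole reads for each Ensembl identifier. Per the submitters' processing notes, bcl2fastq 2.17.1.14, STAR 2.5.0a, featureCounts and the build mm10 were used; the release of the annotation, and how strand and multi-mapping reads were handled, is not given in the sources used. The labels name the molecule polyA RNA, but their protocol text is of a stranded kit for total RNA. No label says whether replicates are separate cultures, so p-values cover only the spread among these libraries, which may be technical.

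Counts were fitted whole with edgeR 4.0.16 in R 4.3.3: filterByExpr with the 4 groups left 19173 of 36920 genes, TMM scaling was applied, and contrasts of 1 quasi-likelihood fit of 4 groups (4 residual degrees of freedom) were tested 2-sided with Benjamini-Hochberg adjustment over all genes kept. ML-792 versus control was fitted on its own with treatment as the only term. The SE is the log2 fold change divided by the square root of F, and 95% intervals use the fit's degrees of freedom. Log2 CPM used a prior count of 2. RPKM used the exon union in GENCODE M21. Copies were found with BLAST 2.17.0. The procedure was tested on simulated data. Alternatives were RLE scaling, both other filters, DESeq2 1.42.0, each library left out, a replicate block, GC and length offsets, and the average of the 2 exposure contrasts.

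The members and lists were chosen with earlier results of these data known. Named were all 8 members, of each list up to 4 called genes with the largest change in a comparison (those of ML-792 versus control in full, others where called per exposure), and for each member the 2 genes most like it.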

Additional observations from a re-analysis of the deposited data

Results flagged for a closer look

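Among the 16 sets of 4 libraries examined (the ML-792 and the control libraries of each of the 8 genes), 2 held a library far from the other 3. For 4 draws from 1 normal distribution chance gives about 1 in 20. Each set here pools 2 days, and the sets share the same libraries, so that rate need not hold. Ehmt2 stood at 205 CPM in D8 replicate 2, against 135 to 146 CPM in the other controls. Cbx1 stood at 260 CPM in D3 replicate 2, against 324 to 329 CPM in the other ML-792 libraries. For Wiz, both D3 libraries lay above both D1 libraries while both D10 libraries lay below both D8 libraries. The second response less the first was -0.733 on the log2 scale, and it did not pass adjustment over all genes (edgeR adjusted p = 1).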

How the results depend on the processing

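Of 728 values of single members under the alternatives, 681 kept the side of the threshold they had, and 664 kept their sign. Ehmt1 was called between ML-792 and control libraries under each of the 16 alternatives. The members called numbered 3 in that comparison and 6 with GC and length offsets or with the replicate block added to them (1 to 3 without 1 library). For Cbx5 the direction turned to -0.267 with the offsets and -0.266 with the block added. At D3 versus D1, 0 members became 1 without the filter, 1 with the stricter filter, 3 with the replicate block, 4 with the offsets and 4 with both (0 to 2 without 1 library). At D10 versus D8, 0 became 1 without the filter, 1 with the replicate block, 1 with the offsets, 2 with both and 1 with DESeq2 (0 to 3 without 1 library). At D8 versus D3, 1 became 2 with the offsets and 3 with both (0 to 2 without 1 library). The members called at D8 versus D1 and for the difference between responses stayed at 0 under every alternative run. The cause of these changes was not tested.

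Over all genes, the count at D3 versus D1 was 2496 and became 3847 without the filter, 4187 with the replicate block, 4447 with the offsets and 6288 with both (387 to 3238 without 1 library). At D10 versus D8, 3244 became 5298 with the block and 6564 with both (1420 to 4304 without 1 library). At D8 versus D3, 4312 became 6547 with the block and 7538 with both (1522 to 5869 without 1 library). At D8 versus D1, 34 became 973 without the filter, 535 with the block, 84 with the offsets, 680 with both and 429 with DESeq2 (0 to 436 without 1 library). For the difference between responses, 0 became 66 without the filter and 3 with DESeq2. With the offsets, 1774 genes were higher and 2673 lower at D3 versus D1 (1518 and 978 as reported), 1874 and 2984 at D10 versus D8 (1777 and 1467), and 3627 and 2224 at D8 versus D3 (2171 and 2141). Replicate numbers pair the samples by no label, and differences between replicates correlated across groups at r = 0.101 to 0.498. Wiz had the fewest reads of the members, 186 to 488 a library.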
